A study of Mus musculus with 7 samples.

Results

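The genes described here are 37 genes of glycolysis and of the response to low oxygen, chosen as a named list and matched by symbol to the gene column of the authors' table. Of the 37, 36 had a row of their own among 23358 rows, and all 36 were tested by the authors and reached 1 FPKM in at least 1 group. FPKM is fragments per kilobase of transcript after scaling for library size, so levels of different genes can be set side by side. The exception was the enolase Eno1, whose row is shared with the near-identical locus Gm5506 and is given apart. The list was divided by role into 15 glycolytic enzymes, 5 transporters and regulatory kinases that feed, drain or switch glycolysis, 13 other targets of the hypoxia response, 2 oxygen sensors and 2 HIF alpha subunits.

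The libraries came from TdTomato-positive cells sorted from C57Bl6 mouse embryo brain at E14.5, 2000 to 5000 cells each, and labelled endothelial. The control group had 3 libraries and the group lacking Tgfbr2, the type II receptor for TGF-β, had 4. TdTomato came from the Ai14 reporter allele, which is switched on where Cre recombinase has acted, and the series describes this sort with no distinction by group. No source used here gives the Cre driver, the Tgfbr2 allele, the genotype of the controls beyond that word, or whether libraries were separate embryos. The q-values may therefore reflect a spread that is technical.

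Glycolysis splits glucose into pyruvate in the cytosol, and lactate dehydrogenase turns pyruvate into lactate where mitochondria do not take it up. HIF, a transcription factor of an oxygen-regulated alpha subunit and the constant subunit ARNT, raises most genes of this pathway when oxygen is short. Prolyl hydroxylases of the EGLN family use oxygen to mark HIF alpha for destruction by the VHL ubiquitin ligase, and some of them are HIF targets themselves. Embryonic brain endothelium relies heavily on glycolysis, and EPAS1 (HIF-2 alpha) is known as the alpha subunit enriched in endothelium.

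HIF binds DNA at a short core, usually RCGTG, where R is A or G. The 250 bases before the annotated start of the members' genes were searched for ACGTG on both strands. The other form of the core, GCGTG, was not searched. RefSeq promoter windows of the GRCm38.p6 assembly were found for 33 of the 37 genes. Of these, 17 (51.5%) held ACGTG in at least 1 window, against 2456 of 9819 tested genes with a window (25%) and 4998 of all 27025 genes in the table (18.5%). By call, it stood before 8 of 14 members that rose (57.1%) and 9 of 17 that did not pass (52.9%), against 21.5% and 26.4% of all tested genes of the same calls. The genes with no window, Slc2a3, Ndrg1, Bhlhe40 and Epas1, are not in these counts. By role, it stood before 6 of 15 enzymes and 6 of 11 other hypoxia targets. A match is only the letters ACGTG in this window, and the palindrome CACGTG, which other factors also bind, holds the motif on both strands.

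The windows below were chosen to set side by side members that rose and members that did not pass, all holding the motif. They run 5′ to 3′ towards the start of the gene, with ACGTG on either strand in capitals and GCGTG unmarked. Ldha (chr7:46845554-46845803, plus strand) and Pgk1 (chrX:106186850-106187099, plus strand) did not pass. Bnip3 (chr7:138909507-138909756, minus strand), Ankrd37 (chr8:45999851-46000100, minus strand), P4ha2 (chr11:54100674-54100923, plus strand) and Egln3 (chr12:54203875-54204124, minus strand) rose.
Ldha: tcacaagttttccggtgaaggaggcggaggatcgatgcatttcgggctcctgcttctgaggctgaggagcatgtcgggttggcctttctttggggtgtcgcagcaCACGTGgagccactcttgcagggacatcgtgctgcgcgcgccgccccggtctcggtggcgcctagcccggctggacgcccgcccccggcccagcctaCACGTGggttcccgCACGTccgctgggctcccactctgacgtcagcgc
Pgk1: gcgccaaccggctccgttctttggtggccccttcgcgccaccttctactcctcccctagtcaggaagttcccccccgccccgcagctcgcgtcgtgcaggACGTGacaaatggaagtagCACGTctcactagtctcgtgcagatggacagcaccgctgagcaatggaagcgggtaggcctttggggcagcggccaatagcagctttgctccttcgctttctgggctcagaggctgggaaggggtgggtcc
Bnip3: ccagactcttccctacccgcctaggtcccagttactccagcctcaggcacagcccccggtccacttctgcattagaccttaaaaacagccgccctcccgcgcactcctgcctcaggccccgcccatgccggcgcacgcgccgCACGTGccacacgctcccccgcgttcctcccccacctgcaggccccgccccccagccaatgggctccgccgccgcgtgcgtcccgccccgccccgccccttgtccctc
Ankrd37: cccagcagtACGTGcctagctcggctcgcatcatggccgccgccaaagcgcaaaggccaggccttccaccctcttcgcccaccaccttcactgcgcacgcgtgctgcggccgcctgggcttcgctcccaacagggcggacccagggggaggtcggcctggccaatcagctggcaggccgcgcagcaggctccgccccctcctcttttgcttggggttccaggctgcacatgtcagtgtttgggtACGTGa
P4ha2: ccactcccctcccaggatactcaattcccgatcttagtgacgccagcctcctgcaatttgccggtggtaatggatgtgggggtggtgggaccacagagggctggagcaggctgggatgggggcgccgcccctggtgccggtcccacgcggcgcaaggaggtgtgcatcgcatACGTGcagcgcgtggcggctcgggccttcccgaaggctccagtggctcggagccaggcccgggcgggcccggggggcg
Egln3: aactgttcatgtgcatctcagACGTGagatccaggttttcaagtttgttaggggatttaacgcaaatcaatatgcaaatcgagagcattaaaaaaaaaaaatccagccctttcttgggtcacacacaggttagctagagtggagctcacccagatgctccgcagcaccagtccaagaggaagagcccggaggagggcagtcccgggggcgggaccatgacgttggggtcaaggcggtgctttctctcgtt
In Ldha the motif began 145, 48 and 34 bases before the start, and the matches at 145 and 48 bases are palindromes. In Pgk1 it began 150 and 131 bases before the start, and in Bnip3 a palindrome began 108 bases before it. In Ankrd37 it began 241 and 6 bases, in P4ha2 78 bases and in Egln3 229 bases before the start.

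Before the members' values, the label of the cells has to be set beside their markers. In the control group 10 microglia and macrophage markers summed to 8387 FPKM and 10 endothelial markers, Kdr, Cdh5, Pecam1 and Cldn5 among them, to 33.1 FPKM. In the Tgfbr2-deficient group the sums were 3737 and 305 FPKM. Of the macrophage markers 9 of 10 fell, and all 10 endothelial, 6 fibroblast, 6 erythroid, 5 platelet, 5 mast cell, 5 neuron and 6 neural progenitor markers rose, as did 5 of 6 mural markers. No marker on these lists was at 0 FPKM in either group. Tgfbr2 itself stood at 91.1 and 65.4 FPKM, with q = 0.0953 in the authors' deposited table. Gene-level FPKM can include exons left after recombination. Neither this nor the part of the cell mix in the Tgfbr2 values was tested. In such bulk samples fewer cells of a type and less RNA per cell cannot be told apart, and the part of the cell mix in each result below was not tested.

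Of the 36 members, 18 (50%) rose and 1 (2.78%) fell at a q-value under 0.05 in the authors' deposited table, against 23.9% and 14.7% of the 13356 genes tested at 1 FPKM or more. The median difference on the log2(FPKM + 1) scale, Tgfbr2-deficient minus control, was 0.64 for the members and −0.08 for all tested genes. The counts differed by role. Of 14 glycolytic enzymes 4 rose (28.6%), while of 13 other hypoxia targets 9 rose (69.2%). The median log2(FPKM + 1) differences were 0.22 and 0.72, so the enzymes lay 0.50 below the other targets. This is a description of lists chosen by role, and the difference between the lists was not tested.

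**Figure D1:**
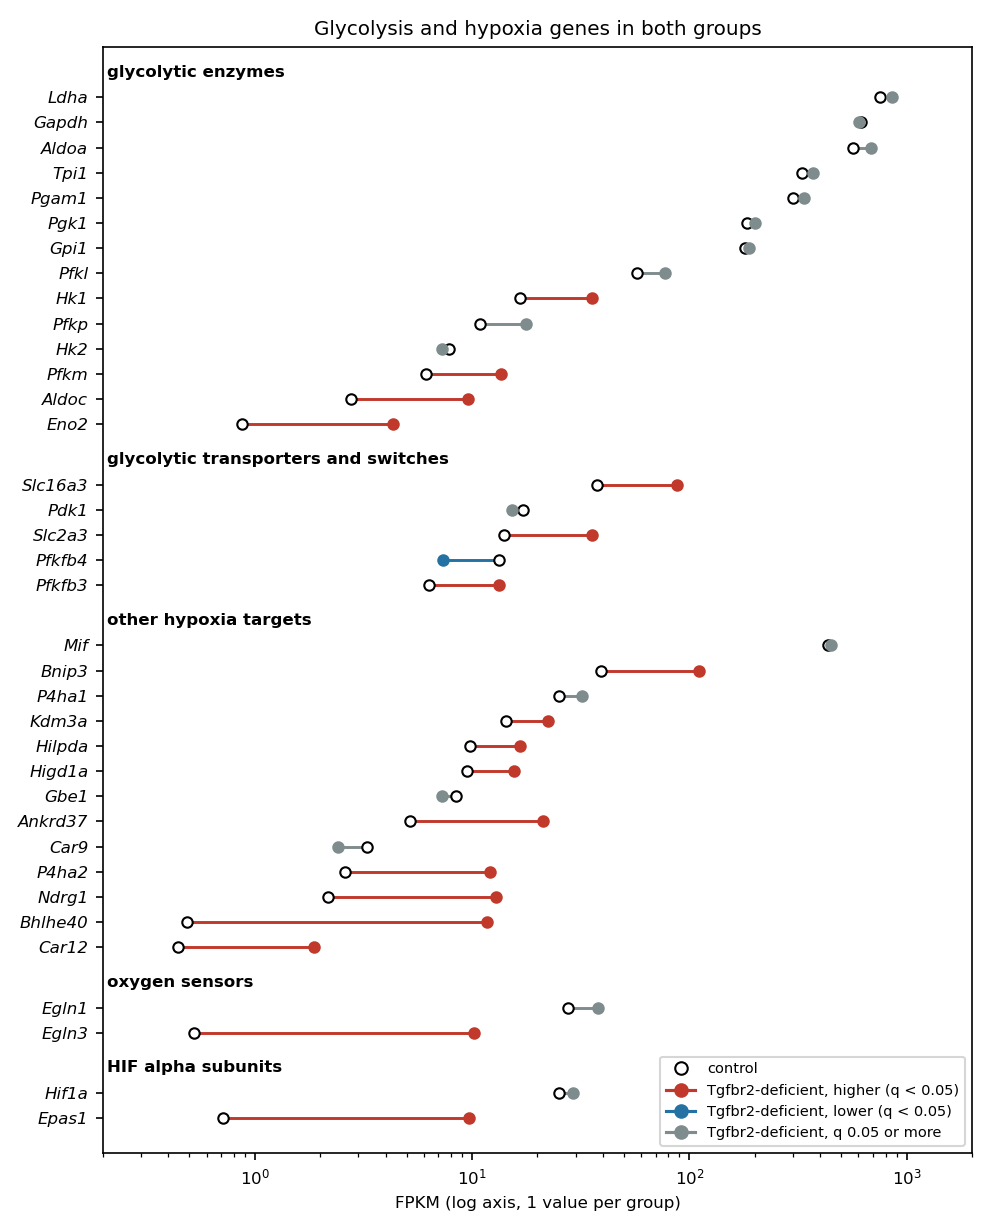
FPKM of each of the 36 members in the control group (open circles) and the Tgfbr2-deficient group (filled circles) on a log axis, 1 value per group with no error available, ordered by role and by control level. Red lines mark 18 members that rose, the blue line Pfkfb4, which fell, and grey lines 17 that did not pass; the 7 enzymes above 100 FPKM did not pass, while Bhlhe40, Egln3 and Epas1 went from under 1 FPKM to between 9.66 and 11.7 FPKM.

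The most abundant enzymes did not pass the test. Ldha, the lactate dehydrogenase subunit that favours lactate production, was at 758 FPKM in the control and 853 FPKM in the Tgfbr2-deficient group. Gapdh, which oxidises glyceraldehyde 3-phosphate, was at 618 and 603 FPKM, and Aldoa, the main aldolase, at 568 and 682 FPKM. These 3 were the most abundant members in both groups. In the authors' deposited table the log2 fold of Ldha was 0.17 (p = 0.608, q = 0.716), that of Aldoa 0.27 (p = 0.347, q = 0.477) and that of Gapdh −0.04 (p = 0.892, q = 0.93).

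Tpi1, which interconverts the triose phosphates, was at 330 and 371 FPKM, and the mutase Pgam1 at 301 and 338 FPKM. Pgk1, the first ATP-yielding step, was at 185 and 200 FPKM and the isomerase Gpi1 at 181 and 188 FPKM. Across these 7 enzymes above 100 FPKM the deposited log2 fold lay between −0.04 and 0.27, and the smallest q-value in the authors' deposited table was 0.477. All 14 enzymes together summed to 3042 FPKM in the control and 3401 FPKM in the Tgfbr2-deficient group, a ratio of 1.12. The row shared by Eno1 and Gm5506 was at 73.0 and 68.6 FPKM, with q = 0.941 in the authors' deposited table. Gapdh, Ldha, Pgk1 and their like have processed pseudogene copies, and no source used here says how reads matching several places were assigned.

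The 4 enzymes that rose were isoforms of low or moderate level, between 0.871 and 16.5 FPKM in the control group. Eno2, the enolase best known from neurons, rose from 0.871 to 4.31 FPKM, 4.94 times the control value. Aldoc, the aldolase of brain, known from astrocytes and radial glia, rose from 2.77 to 9.61 FPKM, a ratio of 3.47. Hk1, a hexokinase bound to mitochondria, rose from 16.5 to 35.5 FPKM, a ratio of 2.15. Each of these 3 had p = 5e-05 and q = 0.00029 in the authors' deposited table. No q-value there is smaller, and 2357 of the 13356 tested genes share this p-value. The log2 folds of Eno2, Aldoc and Hk1 there were 2.31, 1.80 and 1.10.

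Pfkm, the muscle form of phosphofructokinase, rose from 6.14 to 13.6 FPKM, a ratio of 2.22, with p = 0.0042 and q = 0.014 in the authors' deposited table. The other phosphofructokinases did not pass: Pfkl, the most abundant, was at 57.4 and 77.4 FPKM (q = 0.141 in the authors' deposited table) and Pfkp at 10.9 and 17.8 FPKM (q = 0.199 in the authors' deposited table). Hk2, the hexokinase best known as a HIF target, was at 7.82 and 7.26 FPKM, with q = 0.733 in the authors' deposited table. In the same groups all 5 neuron markers rose, their sum going from 98.9 to 222 FPKM, 2.25 times. The sum of 6 neural progenitor markers went from 45.1 to 132 FPKM, 2.93 times. The other marker sums that rose did so by larger ratios, from 6.56 for erythroid to 45.1 for mast cell markers. The part of any cell type in the values of Eno2 and Aldoc was not tested.

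Both transporters on the list rose. Slc2a3 (GLUT3), a high-affinity glucose importer known from neurons and blood cells, went from 14.1 to 35.6 FPKM, a ratio of 2.52. Slc16a3 (MCT4), which exports lactate from glycolytic cells, went from 37.5 to 87.5 FPKM, a ratio of 2.33. Both had p = 5e-05 and q = 0.00029 in the authors' deposited table, with log2 folds of 1.33 and 1.22.

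The bifunctional enzymes that set fructose 2,6-bisphosphate, the activator of phosphofructokinase, moved in opposite directions. Pfkfb3, the isoform that mainly makes the activator, rose from 6.36 to 13.3 FPKM, with a deposited log2 fold of 1.06, p = 1.0e-04 and q = 5.4e-04 in the authors' deposited table. Pfkfb4 fell from 13.3 to 7.39 FPKM, with a deposited log2 fold of −0.85, p = 4.0e-04 and q = 0.00185 in the authors' deposited table, and it was the member that fell. The sum of the 4 Pfkfb genes was 23.9 and 25.6 FPKM, with Pfkfb3 at 26.6% of it in the control and 51.9% in the Tgfbr2-deficient group. Pdk1, which closes the entry of pyruvate into mitochondria, was at 17.2 and 15.2 FPKM, with q = 0.53 in the authors' deposited table.

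Setting each member beside the other genes of its step shows where the isoform mix differed. FPKM is per length, so shares of the summed FPKM of a step can be given, with no error measure since there was 1 value per group. Hk3, a hexokinase of myeloid cells, fell from 105 to 51.0 FPKM (q = 0.00029 in the authors' deposited table). The sum of 5 hexokinase genes was lower too, at 129 FPKM in the control and 95.0 FPKM in the Tgfbr2-deficient group. Hk3 held 80.9% of this sum in the control and 53.7% in the Tgfbr2-deficient group, while Hk1 went from 12.8% to 37.4%. The macrophage markers fell in the same comparison, from a sum of 8387 to 3737 FPKM, and their part in the value of Hk3 was not tested.

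Among glucose importers Slc2a1 (GLUT1), the transporter of the blood-brain barrier and of red cells, rose from 31.7 to 191 FPKM and held 68.6% and 83.7% of the sum of 3 transporters. Slc16a3 went from 54.1% to 81.5% of the sum of 3 monocarboxylate transporters, and Slc16a7 (MCT2) fell from 18.9 to 7.67 FPKM. Ldhb, the subunit that favours pyruvate, rose from 29.1 to 59.5 FPKM, and Ldha held 96.3% and 93.5% of the lactate dehydrogenase sum. Aldoa held 99.5% and 98.6% of the aldolase sum in spite of the rise of Aldoc. Slc2a1, Slc16a7 and Ldhb each had q = 0.00029 in the authors' deposited table.

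**Figure D2:**
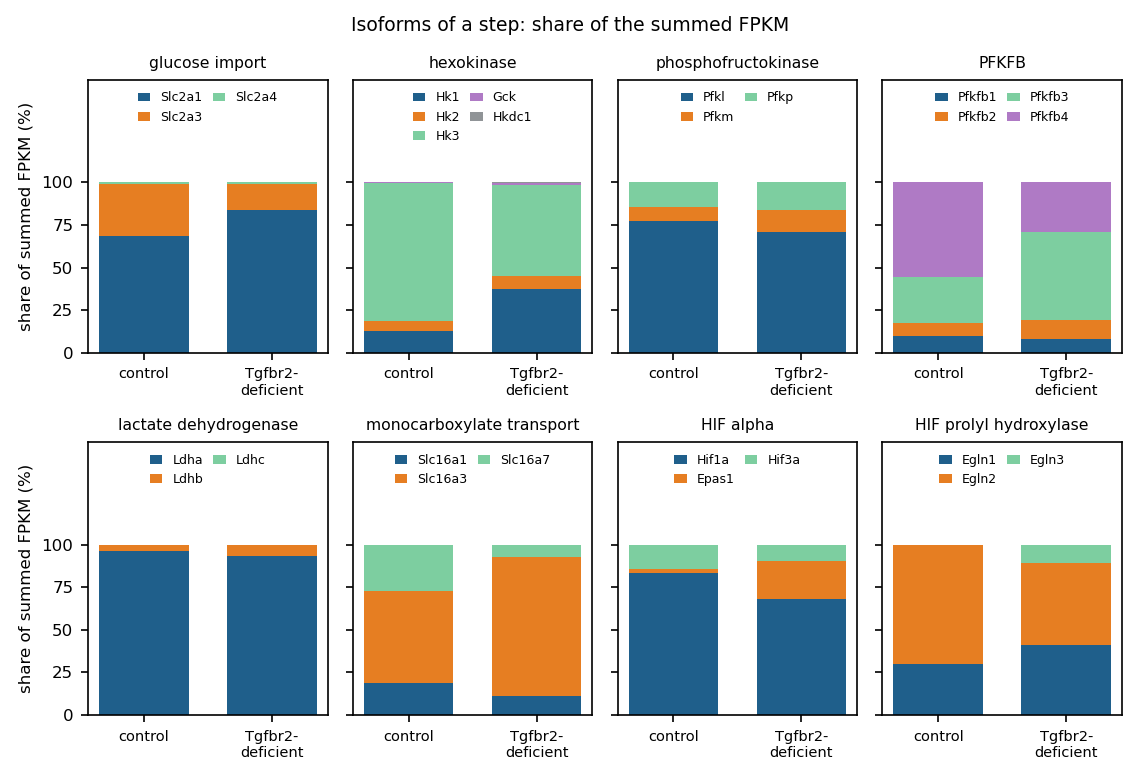
Share of the summed FPKM (%) held by each gene of 8 steps or families in the control and the Tgfbr2-deficient group, 1 value per group with no error bars possible. Hk3 falls from 80.9% to 53.7% of hexokinase, Pfkfb3 rises from 26.6% to 51.9% of its family and Epas1 from 2.35% to 22.5% of the HIF alpha sum, while Ldha holds 96.3% and 93.5% of lactate dehydrogenase.

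Among hypoxia targets outside glycolysis, the member with the largest ratio was Bhlhe40 (DEC1), a repressor of the basic helix-loop-helix family that HIF and the circadian clock induce. It rose from 0.488 to 11.7 FPKM, 24.1 times the control value, and 124 of the 13356 tested genes had a larger deposited log2 fold. Ndrg1, a stress-induced protein of growth arrest and myelin, rose from 2.18 to 12.9 FPKM, a ratio of 5.93. Ankrd37, a small ankyrin-repeat protein strongly induced by HIF, rose from 5.16 to 21.3 FPKM, a ratio of 4.13.

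P4ha2, a catalytic subunit of the prolyl 4-hydroxylase that matures collagen, rose from 2.59 to 12.1 FPKM, a ratio of 4.69. The other such subunit on the list, P4ha1, was at 25.1 and 31.9 FPKM, with q = 0.218 in the authors' deposited table. Beside this, the sum of 6 fibroblast markers went from 123 to 1025 FPKM, and its part in the value of P4ha2 was not tested. P4ha2 held 9.35% of the sum of both subunits in the control and 27.6% in the Tgfbr2-deficient group.

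Bnip3, a mitochondrial protein that triggers mitophagy, rose from 39.2 to 111 FPKM, a ratio of 2.84, and was the most abundant member that rose. The carbonic anhydrase Car12 rose from 0.443 to 1.87 FPKM. The other carbonic anhydrase, Car9, one of the most HIF-specific genes known, was at 3.29 and 2.43 FPKM and did not pass (q = 0.332 in the authors' deposited table). Bhlhe40, Ndrg1, Ankrd37, P4ha2, Bnip3 and Car12 each had p = 5e-05 and q = 0.00029 in the authors' deposited table, with log2 folds of 4.59, 2.57, 2.05, 2.23, 1.5 and 2.08.

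Smaller rises, under a ratio of 2, were seen for 3 further targets. Kdm3a, a histone H3 lysine 9 demethylase, went from 14.3 to 22.5 FPKM (q = 0.0101 in the authors' deposited table). Hilpda, which coats lipid droplets, went from 9.74 to 16.7 FPKM (q = 0.0332 in the authors' deposited table), and Higd1a, a mitochondrial inner membrane protein, from 9.47 to 15.7 FPKM (q = 0.0186 in the authors' deposited table). These 3 and Pfkm were the calls lost at q under 0.01.

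Mif, a cytokine that is also widely expressed, was at 434 and 448 FPKM (log2 fold 0.05, p = 0.831 and q = 0.887 in the authors' deposited table) and Gbe1, the glycogen branching enzyme, at 8.40 and 7.31 FPKM (q = 0.537 in the authors' deposited table). With Car9 and P4ha1 they made up the 4 targets that did not pass. None of the 13 targets fell at q under 0.05, or at an unadjusted p under 0.05, in the authors' Cuffdiff test.

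The oxygen sensors and HIF alpha subunits each held a gene that was low in the control group and rose. Egln3 (PHD3), the prolyl hydroxylase most inducible by HIF, went from 0.523 to 10.2 FPKM, 19.4 times the control value. Egln1 (PHD2), the main hydroxylase in normal oxygen, was at 27.8 and 38.0 FPKM, with p = 0.0394 and q = 0.0884 in the authors' deposited table. Egln2 (PHD1), outside the list, fell from 64.6 to 43.9 FPKM (q = 0.0235 in the authors' deposited table). The sum of the 3 sensors was 92.9 and 92.1 FPKM, with Egln3 at 0.563% and 11.0% of it.

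Epas1 (HIF-2 alpha) rose from 0.711 to 9.66 FPKM, 13.6 times the control value, and 221 tested genes had a larger deposited log2 fold. Hif1a, the widely expressed alpha subunit, was at 25.1 and 29.3 FPKM, with p = 0.292 and q = 0.421 in the authors' deposited table. Hif1a held 83.1% of the summed FPKM of Hif1a, Epas1 and Hif3a in the control and 68.0% in the Tgfbr2-deficient group, and Epas1 2.35% and 22.5%. Egln3 and Epas1 had p = 5e-05 and q = 0.00029 in the authors' deposited table, with log2 folds of 4.28 and 3.76. The sum of 10 endothelial markers went from 33.1 to 305 FPKM, 9.21 times, in the same comparison. That of 5 mast cell markers went from 7.92 to 357 FPKM, 45.1 times, and that of 5 platelet markers from 7.01 to 122 FPKM, 17.4 times. The other marker sums that rose did so by smaller ratios, and the macrophage sum fell. The part of any cell type in the values of Epas1, Egln3 and Bhlhe40 was not tested. All 3 genes, like Eno2 and Car12, stood under 1 FPKM in the control group, where depth is unknown. No interval can be given for the ratios of these 5 members.

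The share of all tested genes that rose differed with level. By mean FPKM of both groups, 44.8% of tested genes rose under 5 FPKM, 19.5% from 5 to 20 FPKM, 7.38% from 20 to 100 FPKM and 5.3% above 100 FPKM. Of the members, 2 of 3, 12 of 17, 4 of 8 and 0 of 8 rose in the same bands, which were set after the values were seen. Above 100 FPKM 42.3% of all tested genes fell, with a median log2(FPKM + 1) difference of −0.50. The 8 members there, 7 enzymes and Mif, had a median of 0.14, and 0 of them fell, also at an unadjusted p under 0.05, in the authors' Cuffdiff test.

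Enzymes and other targets were unevenly spread over these bands, with 7 of 14 enzymes and 1 of 13 targets above 100 FPKM. Under 5 FPKM, 1 of 1 enzymes and 1 of 2 targets rose. From 5 to 20 FPKM, 2 of 4 enzymes and 7 of 8 targets rose, and from 20 to 100 FPKM 1 of 2 in each list. The part of level in the difference between the lists was not tested.

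**Figure D3:**
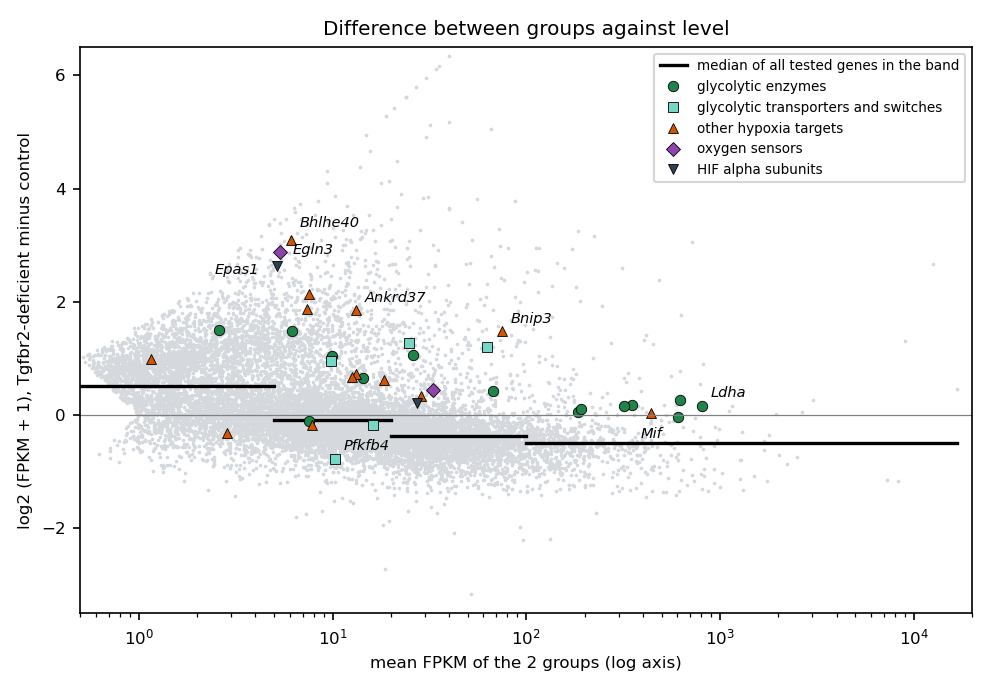
Difference in log2(FPKM + 1), Tgfbr2-deficient minus control, against the mean FPKM of both groups (log axis) for all tested genes (grey, with 14 genes beyond the plotted range) and the members by role. Black lines are medians of all tested genes in 4 bands of level, falling from 0.52 to −0.50; the 8 members above 100 FPKM lie near 0, above the line, and Bhlhe40, Egln3 and Epas1 lie between 2.64 and 3.10.

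Other genes of glycolysis and of the HIF pathway, a list of 60 without the members, were counted in the same way. Of 53 tested, 23 rose (43.4%) and 6 fell (11.3%), beside 23.9% and 14.7% of all tested genes. The median log2(FPKM + 1) difference of the list was 0.39. In the same bands of level, from low to high, 9 of 14, 7 of 21, 4 of 14 and 3 of 4 rose. The shares of all tested genes there were 44.8%, 19.5%, 7.38% and 5.3%. Adm, the peptide adrenomedullin, rose from 0.353 to 27.3 FPKM, Vegfa, the growth factor of vessels, from 2.08 to 26.0 FPKM, Lox, a collagen cross-linking oxidase, from 2.36 to 33.3 FPKM and Ddit4 (REDD1), an inhibitor of mTOR signalling, from 3.46 to 37.1 FPKM. Bpgm, which makes 2,3-bisphosphoglycerate in red cells, rose from 25.2 to 201 FPKM, while the sum of 6 erythroid markers went from 355 to 2332 FPKM, and their part in it was not tested. These 5 genes each had q = 0.00029 in the authors' deposited table.

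The share that fell was near that of all tested genes, and the genes were Hk3, Slc16a7, Egln2, Zfp395, Pygl and Plod1. Pygl, the liver glycogen phosphorylase, went from 38.6 to 22.4 FPKM (q = 0.00226 in the authors' deposited table) and Plod1, a collagen lysyl hydroxylase, from 116 to 71.7 FPKM (q = 0.00568 in the authors' deposited table). Plod2, the lysyl hydroxylase better known as a HIF target, rose from 1.02 to 6.38 FPKM (q = 0.00029 in the authors' deposited table). Pkm, pyruvate kinase, was at 729 and 818 FPKM and did not pass (q = 0.744 in the authors' deposited table), like the abundant enzymes on the list. Vhl, Arnt and Hif1an encode the ubiquitin ligase subunit, a HIF partner and the asparaginyl hydroxylase of HIF. They were at 14.2 and 16.0, at 21.0 and 17.1 and at 9.61 and 9.15 FPKM, and none of these 3 passed. Arnt2, the paralog of Arnt, rose from 2.85 to 9.10 FPKM (q = 0.00029 in the authors' deposited table).

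**Figure D4:**
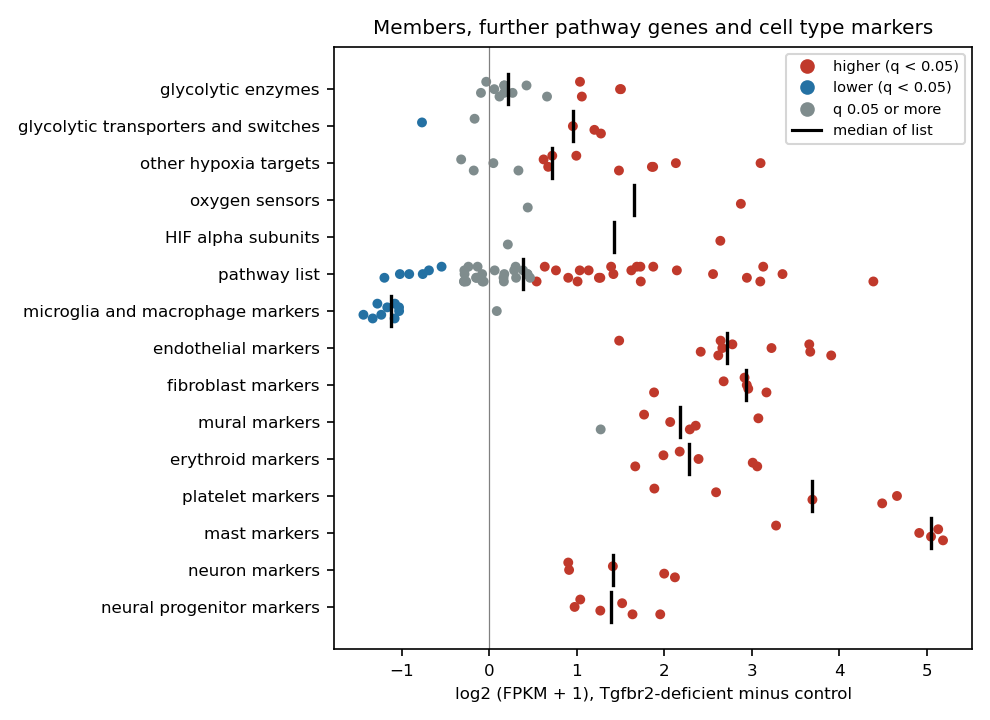
Difference in log2(FPKM + 1), Tgfbr2-deficient minus control, of each tested gene (points) with the median of its list (black bars) for the members by role, the further pathway genes and the cell type markers. The median is 0.22 for glycolytic enzymes, 0.72 for other hypoxia targets, 2.72 for endothelial markers and −1.12 for microglia and macrophage markers.

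On mm10, the deposited table places Egln3 on chromosome 12 from 54178981 to 54203874 and Epas1 on chromosome 17 from 86753864 to 86833410, where GENCODE M21 has the protein-coding genes of those names from 54178981 to 54203860 and from 86753700 to 86833410. For Bhlhe40 the deposited locus runs on chromosome 6 from 108577039 to 108666925, while GENCODE M21 places the protein-coding gene from 108660629 to 108666925. The same locus is given to the row of 0610040F04Rik, which stood at 0.0681 and 0.107 FPKM, so a deposited locus can span neighbouring genes. Likewise the locus of Pfkm, on chromosome 15 from 98038744 to 98132447, is shared with Senp1, at 7.26 and 6.25 FPKM (q = 0.581 in the authors' deposited table), and GENCODE M21 begins Pfkm at 98092589.

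Exons of another annotated gene on the opposite strand overlap part of the exons of 7 members that rose, namely Hk1, Pfkm, Bhlhe40, Bnip3, Ankrd37, Ndrg1 and Higd1a. Such overlaps are also annotated for Gpi1, Pfkp, Aldoa, Tpi1, Gapdh, Car9 and Hif1a, which did not pass. The share over all genes was not counted. For Pfkm this is Senp1, with Gm26513 on the same strand, and for Ankrd37 it is Ufsp2 and Lrp2bp. The labelled kits do not mark strand, so reads in the overlapping stretches, whose share was not measured, cannot be assigned to either gene.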

How the data were processed

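RNA was sequenced from 3 control and 4 Tgfbr2-deficient libraries, made per the labels' protocols with SMART-Seq v4 and Nextera XT kits and read as 50-base single reads. The submitters' processing notes name TopHat2, Cufflinks 2.2.1, Cuffdiff and build mm10. The annotation, normalization and test options were not given in the sources used here. Per the file headers, the FPKM values deposited are 1 per gene and group, combined over libraries by the authors' Cuffdiff. The deposited log2 fold has no pseudocount, and the deposited test statistic, a score, was not used. The p-value and q-value are those the authors deposited. The smallest p-value, 5e-05, is shared by 13 members and by 2357 of the 13356 tested genes. Spread and depth per library are unknown here, so no intervals or floors were set.

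Members and lists were chosen with earlier results of these data known. Rows with test status OK that reached 1 FPKM in either group were counted as risen or fallen at q under 0.05, over all genes the authors tested. List medians use log2(FPKM + 1), which understates changes of low genes. All members were described, with full values for those past the threshold at a log2 difference of 1 or more and for the 2 most abundant of each role. From the further pathway genes the 4 largest rises were named; others, among them isoforms of a step, were named after their values were seen. Start coordinates were converted to count from 1, and sequences are RefSeq's for GRCm38.p6, the same assembly as mm10. Alternatives were other FPKM minimums, q-value rules, pseudocounts and centrings. Counting code was tested on simulated data. Python 3.11.15 and pandas 2.3.3 were used.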

Additional observations from a re-analysis of the deposited data

How the results depend on the processing

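Of 74 recomputed counts and medians, 68 stayed near the reported value and 6 moved. Near means within 1.5 times of a count, or within the median absolute deviation of a list's members. No median changed sign, and a count cannot. Some could not move: all 36 members reached 1 FPKM, so dropping the FPKM minimum changed none of their values. Both centrings cancel in the difference between enzymes and other targets, and a count of 0 stays 0 under stricter rules. Under the alternatives the number of members that rose lay between 14 (q under 0.01) and 18, of enzymes between 3 and 4 and of other targets between 6 and 9. With a log2 fold of at least 1 required, 0 members and 3 further pathway genes fell in place of 1 and 6, and 368 of all tested genes. At q under 0.01, 1026 of all tested genes fell, and at a minimum of 5 FPKM 1643 rose. These settings keep fewer genes by construction. Counting the row shared by Eno1 and Gm5506, an alternative chosen after seeing the data, changed no count. Centring on 77 ribosomal protein genes added 0.54 to every log2 difference: the enzymes' median became 0.76, Hk2 0.44, Gapdh 0.50, Pdk1 0.37, Car9 0.22 and Gbe1 0.36. Centred on all tested genes, Gapdh became 0.044. These 5 genes, negative as reported, did not pass, and no member that passed changed sign. Pfkfb4, the member that fell, went from −0.77 to −0.23 when centred on ribosomal protein genes. No paired analysis was possible because the deposited values are 1 per group, and leaving out single libraries was not run for the same reason. Low FPKM values are the least certain, since depth is unknown.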
